A study of Bos taurus with 56 samples.

Results

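Gene expression was compared between post-partum non-lactating cows and nulliparous heifers in the epithelium of the isthmus on the side of the corpus luteum (CL), called ipsilateral here. The CL is the gland left on the ovary that has just ovulated. The members were chosen by the names of the libraries, 5 of non-lactating cows and 5 of heifers, that is 10 of the 56 libraries of the series. All animals were Holstein. The non-lactating cows were primiparous, were dried off at calving and never milked, and were at 60 days post-partum, whereas the heifers had never calved. All received the same synchronization with a progesterone device, a prostaglandin F2 alpha analogue and buserelin, and were slaughtered on Day 3 after estrus without insemination. Neither group was lactating, so they differed in pregnancy and calving as well as in the post-partum state, and these cannot be told apart. The cows were age-matched to lactating cows of the same cohort. Ages are not given in the sources used here. In the text below, cows are non-lactating cows unless they are called lactating, and the animals of each group are named A to E.

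The isthmus is the narrow part of the oviduct next to the uterus. Its mucosa holds spermatozoa before ovulation and is passed by the early embryo in the days after it. The epithelium is made of multiciliated cells, which move fluid and cells with beating cilia, and of secretory cells, which release mucins, oviductal glycoprotein and other proteins into the lumen. The ampulla, on the ovarian side, is richer in ciliated cells. RNA came from scraped epithelium, so it is a mixture, and in such bulk samples fewer cells of a type and less RNA per cell cannot be told apart.

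Libraries held 3875324 to 5556310 counts on genes in heifers (median 5242322) and 3714419 to 6836850 in cows (median 5681863). Epithelial markers were present in every library, with EPCAM at 359.6 to 509 CPM (counts per library scaled to a common total) in heifers and 297 to 372 CPM in cows, and the cilia regulator FOXJ1 at 164 to 236 and 197 to 287 CPM. These markers were not level between groups. In the edgeR test described below, EPCAM was lower in cows (log2 difference -0.40, unadjusted p = 0.00408) and FOXJ1 higher (0.31, unadjusted p = 0.0434). DESeq2 called EPCAM lower (adjusted p = 0.0460). Heifer A stood apart from the other libraries. Its secretory product OVGP1, oviductal glycoprotein, was at 151 CPM against 6084 to 13398 CPM in the other heifers, and its first principal component was -63.9 against -19.6 to 34.9 in the other 9 libraries. Cow A lay close to the heifers, and its highest correlation of log2 CPM was with heifer B (r = 0.963). Its median r was 0.948 with the other cows and 0.959 with the heifers. Cow E likewise correlated best with heifer D (r = 0.962). For cow C and heifer D the median r with the own group (0.9589 and 0.9588) was no higher than with the other group (0.9591 each). The groups were thus not clearly apart in these correlations.

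Of 13703 genes tested with edgeR's quasi-likelihood test, 1 passed the Benjamini-Hochberg adjusted p threshold of 0.05 (0.00730% of the genes tested), and it fell in cows. That gene was GAT, an acyltransferase of the family that joins glycine to acyl-CoA. Before adjustment, 1619 genes (11.8%) had p under 0.05, of which 874 had the higher mean in cows (6.38%) and 745 the lower (5.44%). The Wald test of DESeq2 called 228 of 14846 genes (1.54%), 96 higher (0.647%) and 132 lower (0.889%) in cows, and 213 of them were among the genes tested with edgeR, each with the same direction and an unadjusted p under 0.05 there. The 5 values of one group did not overlap with the 5 of the other for 295 genes (2.15%), 146 higher (1.07%) and 149 lower (1.09%) in cows. Values of single genes other than GAT are therefore given below as measured, some of them with their adjusted p. With edgeR none of these other genes passed the adjusted threshold in this comparison, also where only a log2 difference and its SE are printed.

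GAT had 97.3, 75.99, 64.1, 67.9 and 72.3 CPM in the heifers and 19.8, 17.5, 22.3, 23.9 and 22.3 CPM in the cows. Every cow lay below every heifer, and the highest cow was at 23.9 CPM against 64.1 CPM in the lowest heifer. The log2 difference of cows minus heifers was -1.83 ± 0.14 (SE), adjusted p = 9.14e-05, and it passed the threshold with each of the 10 libraries left out in turn (adjusted p 0.000115 to 0.000886). GAT was measured mainly in the isthmus: over all conditions, on a scale common to the 56 libraries, its mean was 0.239 to 2.05 CPM in the 6 ampulla conditions and 21.2 to 76.4 CPM in the 6 isthmus conditions. Of the other genes of glycine and acyl conjugation, 3 could be tested, and ACSM1, which activates medium-chain fatty acids, had the smallest p of them with a log2 difference of 0.68 ± 0.31 (SE) (adjusted p = 0.41).

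The other 11 genes with the smallest p among those lower in cows included an endocytic receptor, a lysosomal protein and genes of ion handling. LRP2, megalin, an endocytic receptor of the apical membrane, had 3960, 4694, 3916, 3670 and 3836 CPM in the heifers and 2776, 1398, 1734, 1644 and 2129 CPM in the cows. Its log2 difference was -1.05 ± 0.17 (SE), adjusted p = 0.0689, and no cow reached the lowest heifer. GM2A, the activator protein of lysosomal ganglioside breakdown, had 784, 1155, 831, 712 and 869 CPM in the heifers and 490.3, 272, 455, 266 and 416 CPM in the cows. All cows were again below all heifers, with a log2 difference of -1.20 ± 0.19 (SE), adjusted p = 0.0689. BSG, basigin, a partner of lactate transporters at the membrane, had 1942, 1970, 2258, 1108 and 1534 CPM in the heifers and 1069, 781, 899.9, 803 and 707 CPM in the cows. The highest cow lay just below the lowest heifer, and the log2 difference was -1.05 ± 0.18 (SE), adjusted p = 0.0692.

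Genes of ion handling stood among them as well. ATP1B2, a beta subunit of the sodium pump, had 83.7, 58.4, 70.6, 68.1 and 62.2 CPM in the heifers and 34.9, 34.7, 46.4, 24.2 and 27.3 CPM in the cows, with a log2 difference of -1.03 ± 0.17 (SE). SCNN1A, the alpha subunit of the epithelial sodium channel, had 148, 178, 192, 101 and 148 CPM in the heifers and 108, 61.9, 73.5, 70.5 and 62.1 CPM in the cows. Here cow A lay within the heifers and the other 4 cows below them, with a log2 difference of -1.03 ± 0.19 (SE). The cell surface mucin MUC15 ranged from 11.6 to 19.5 CPM in heifers and 3.54 to 7.17 CPM in cows (log2 difference -1.37 ± 0.25 SE). The hypoxia-inducible factor subunit HIF3A ranged from 149.8 to 221 CPM in heifers and 60.8 to 134 CPM in cows (-1.01), the adhesion receptor LPHN3 from 267 to 307 CPM in heifers and 138 to 207 CPM in cows (-0.68), and NEBL, an actin-binding nebulin relative, from 273 to 372 CPM in heifers and 169 to 227 CPM in cows (-0.70). These groups did not overlap. The same held for CYB5B, an outer mitochondrial membrane cytochrome (-0.73), and PRPF4, a splicing factor of the U4/U6 particle (-1.16). The adjusted p of these 11 genes lay between 0.0689 and 0.0849.

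Among the 12 genes with the smallest p that were higher in cows, a transporter and a growth factor receptor had the 2 smallest p. SLCO3A1, an organic anion transporter that carries prostaglandins, had 2.52, 3.67, 3.82, 4.15 and 5.17 CPM in the heifers and 7.26, 14.7, 17.3, 17.3 and 11.1 CPM in the cows. Every cow lay above every heifer, with a log2 difference of 1.80 ± 0.28 (SE), adjusted p = 0.0689. ERBB4, a receptor of the epidermal growth factor family that binds neuregulins, had 13.4, 14.7, 13.4, 15.4 and 16.5 CPM in the heifers and 25.9, 25.1, 29.01, 24.05 and 33.95 CPM in the cows. The cows again lay above the heifers, with a log2 difference of 0.91 ± 0.14 (SE), adjusted p = 0.0689, and both groups were narrow.

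Secreted and immune genes followed. The extracellular matrix protein RELN ranged from 1.15 to 3.12 CPM in heifers and 5.65 to 10.4 CPM in cows (1.89 ± 0.32 SE on the log2 scale), and TNFSF9, a tumour necrosis factor ligand that stimulates T cells, from 4.02 to 7.63 CPM in heifers and 8.93 to 18.1 CPM in cows (1.24 ± 0.26 SE). C3, the central component of complement, had 7.31, 82.6, 85.9, 117 and 96.03 CPM in the heifers and 253, 602, 508, 1629 and 177 CPM in the cows. The lowest cow was above the highest heifer, but the cows spread over a wide range and heifer A lay far below the others, and the log2 difference was 3.02 ± 0.66 (SE), adjusted p = 0.134. The endocytic receptor LRP1 ranged from 29.5 to 61.98 CPM in heifers and 69.8 to 115 CPM in cows (0.92), with heifer A the lowest heifer and cow A the lowest cow. The cytoskeletal genes SVIL and PDLIM2 had log2 differences of 0.71 and 2.03, the transcription factor relative MYRFL 2.50, the ciliary genes LRRC48 and CCDC13 0.57 and 0.48, and the cadherin CDH23 0.53. The groups overlapped only for MYRFL among the 12, and the adjusted p of the 12 lay between 0.0689 and 0.134. The genes of both directions were picked by their p in these libraries, so their lack of overlap is not separate evidence. RELN, PDLIM2 and MYRFL also had few reads in heifers and passed the filter on low counts through the cows. Genes as low as this in both groups were not tested. Over all genes tested, 1.07% were higher and 1.09% lower in cows without overlap.

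**Figure D1:**
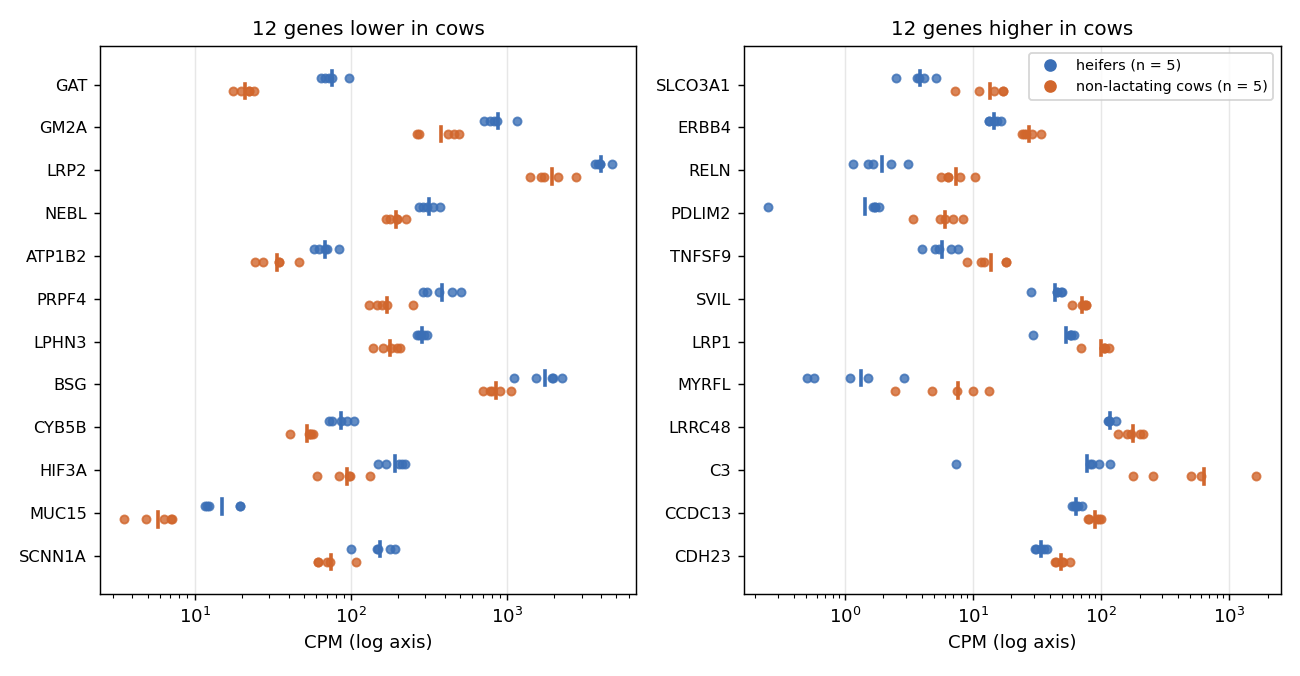
CPM (log axis) of GAT and the 11 further genes with the smallest p among those lower in cows (left) and of the 12 with the smallest p among those higher in cows (right); each point is a library, blue for the 5 heifers and orange for the 5 non-lactating cows, and vertical bars are group means. GAT is at 17.5 to 23.9 CPM in cows and 64.1 to 97.3 CPM in heifers, and the groups overlap only for SCNN1A and MYRFL. The genes were picked by their p in these same libraries, so this is not separate evidence.

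Multiciliated cells are described first among the gene groups. Of 82 tested genes of the motile cilium (dyneins, radial spokes, central pair, docking and assembly factors), 79 had the higher mean in cows and 3 the lower, beside 7138 of 13703 over all genes (52.1%). At an unadjusted p under 0.05 there were 26 higher and 0 lower, and DESeq2 called 6 higher and 0 lower. Over all genes tested, 6.38% were higher and 5.44% lower at that p, and DESeq2 called 0.647% higher and 0.889% lower. The counts of the lists below are to be read beside these shares. The median log2 difference of the motile cilium list was 0.27, against 0.01 over all genes tested. The differences were small and shared: the summed level of the list was 17636, 18539, 19228, 17440 and 16088 CPM in the heifers and 20590, 19723, 21198, 23715 and 20327 CPM in the cows. Every cow lay above every heifer. With each library left out in turn, 18 to 35 members were higher and 0 lower at that p, the fewest without cow C and the most without cow E.

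Within the list, LRRC48, a subunit of the nexin-dynein regulatory complex, had 130.4, 116, 114, 116 and 116 CPM in the heifers and 137, 159.6, 203, 211 and 172 CPM in the cows. Cow A was nearest to the heifers, and the log2 difference was 0.57 ± 0.12 (SE), adjusted p = 0.127. RSPH14, a radial spoke head relative, ranged from 17.2 to 24.96 CPM in heifers and 26.6 to 43.8 CPM in cows (0.73 ± 0.16 SE), and the calcium-binding CAPS2 from 47.3 to 61.9 CPM in heifers and 63.6 to 94.6 CPM in cows (0.48 ± 0.12 SE). Of 14 tested regulators of multiciliation, 11 had the higher mean in cows, 5 of them at an unadjusted p under 0.05, with a median of 0.25, and 2 were higher at that p without cow C or without heifer B. GMNC, the geminin relative that starts the multiciliated programme, had 42.6, 32.3, 66.4, 45.5 and 35.01 CPM in the heifers and 61.8, 75.4, 76.1, 92.2 and 73.5 CPM in the cows. Cow A was below heifer C and the other 4 cows were above all heifers, with a log2 difference of 0.77 ± 0.18 (SE), adjusted p = 0.143. The log2 difference was 0.31 for FOXJ1, 0.42 for the centriole amplification gene CCDC78 and 0.71 for the transcription factor TP73. NOTCH1, a receptor whose activity favours the secretory over the ciliated fate, went the other way, at 123 ± 53.2 CPM (SD, n = 5) in heifers and 70.6 ± 15.7 CPM (SD, n = 5) in cows (log2 difference -0.80 ± 0.27 SE, adjusted p = 0.266).

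For the secretory pathway most members were on the other side. Of 48 tested genes of protein folding in the endoplasmic reticulum (ER) and export from it, 39 had the lower mean in cows, 21 of them at an unadjusted p under 0.05 and 0 of the higher ones, and DESeq2 called 5 lower. Over all genes tested, 5.44% were lower at that p and DESeq2 called 0.889% lower. The median log2 difference of the ER list was -0.23. The summed level was 11739, 11316, 10839, 10315 and 12222 CPM in the heifers and 9111, 8946, 10028, 9501 and 7882 CPM in the cows, and no cow reached the lowest heifer. CREB3L1, a membrane-bound transcription factor of secretory capacity, had 213, 143, 154, 152 and 107 CPM in the heifers and 61.1, 62.8, 98.3, 51.2 and 92.6 CPM in the cows, with a log2 difference of -1.07 ± 0.21 (SE), adjusted p = 0.121. DNAJB9, a co-chaperone of the ER chaperone BiP, ranged from 61.6 to 72.4 CPM in heifers and 37.1 to 51.5 CPM in cows (-0.52 ± 0.11 SE), and TM9SF3, a Golgi membrane protein, from 798 to 1043 CPM in heifers and 532 to 718 CPM in cows (-0.52 ± 0.12 SE). For SEL1L3, a relative of an ER degradation factor, the values overlapped through cow A, at 356 CPM against 302 to 432 CPM in heifers. Leaving out heifer E gave 13 members lower at that p, leaving out each other library gave 15 to 21, and leaving out heifer A and cow A together gave 15.

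**Figure D2:**
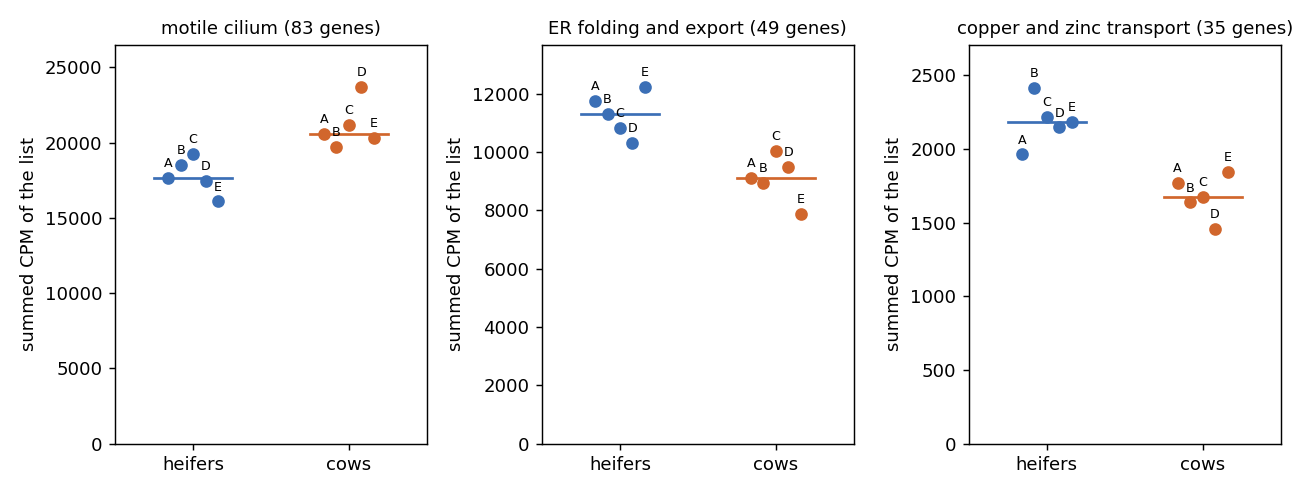
Summed CPM of 3 gene lists in each library (linear axis from 0); letters name the animals and horizontal lines are group medians. The motile cilium sum is 16088 to 19228 CPM in heifers and 19723 to 23715 CPM in cows, the ER sum 10315 to 12222 and 7882 to 10028 CPM, and the copper and zinc transport sum 1962 to 2413 and 1455 to 1844 CPM, with no overlap in any of them. These 3 are shown because they were the only ones of the 36 lists whose sums did not overlap between groups.

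Products of the secretory cells were found on both sides. Of 9 tested secretory cell markers, 6 had the higher mean in cows, 2 at an unadjusted p under 0.05. OVGP1 had 151, 6084, 6523, 11666 and 13398 CPM in the heifers and 10835, 13938, 13310, 14928 and 10833 CPM in the cows, and the log2 difference of 0.76 had an unadjusted p of 0.273. The membrane mucin MUC16 followed the same order, with 245, 2522, 3125, 3630 and 4041 CPM in the heifers and 4141, 6392, 5588, 7886 and 4032 CPM in the cows and a log2 difference of 1.05 ± 0.49 (SE). CRISP3, a cysteine-rich secretory protein, had 0, 2.94, 5.34, 8.52 and 7.84 CPM in the heifers and 8.86, 17.2, 30.3, 10.7 and 23.1 CPM in the cows (1.85 ± 0.56 SE, adjusted p = 0.228). In the list of mucosal defence, 10 of 16 tested genes had the lower mean in cows, 6 at an unadjusted p under 0.05 against 1 higher. The summed level of that list overlapped and leaned the other way, at 4606 to 8390 CPM (median 6804) in heifers and 5742 to 10464 CPM (median 8286) in cows. TFF3, a trefoil factor of mucus, ranged from 131 to 271 CPM in heifers and 63.4 to 134 CPM in cows (-1.07 ± 0.22 SE), and BPIFA1, a secreted airway and mucosal defence protein, from 3.95 to 6.11 CPM in heifers and 1.09 to 3.96 CPM in cows (-1.36 ± 0.37 SE).

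The secreted ribonucleases, several of which have antimicrobial activity, were mostly lower. Of 9 tested, 7 had the lower mean in cows, 5 at an unadjusted p under 0.05 and none of the higher ones, with a median log2 difference of -0.70. Over all genes tested, 5.44% were lower at that p. ANG, angiogenin, had 76.4, 55.98, 40.1, 30.95 and 70.02 CPM in the heifers and 31.7, 22.1, 18.6, 10.7 and 21.2 CPM in the cows. Cow A alone overlapped with the heifers, just above the lowest of them, and the log2 difference was -1.39 ± 0.29 (SE), adjusted p = 0.123. RNASE1 ranged from 14.3 to 30.8 CPM in heifers and 6.92 to 10.1 CPM in cows (-1.07 ± 0.23 SE) and RNASE4 from 51.3 to 125 CPM in heifers and 30.4 to 71.6 CPM in cows (-0.96 ± 0.27 SE). Leaving out heifer E gave 3 members lower at that p, and leaving out each other library 4 or 5. Reads of closely related copies may not be told apart in this family, and ANG and RNASE4 are neighbours in the RefSeq gene order of assembly ARS-UCD2.0.

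Complement and antigen presentation were examined next. Of 18 tested complement components and regulators, 12 had the higher mean in cows (66.7%, against 52.1% of all genes tested). At an unadjusted p under 0.05, 4 were higher and 2 lower, where all genes gave 6.38% higher and 5.44% lower. The median log2 difference was 0.60. The median was 0.32 over 19 tested without cow D, and 7 of 20 tested were higher at that p without heifer D. C1S, a protease of the classical pathway, had 0.756, 1.10, 2.10, 0.831 and 1.72 CPM in the heifers and 6.91, 5.09, 3.48, 17.1 and 2.65 CPM in the cows. All cows were above all heifers, cow D most, with a log2 difference of 2.40 ± 0.53 (SE), adjusted p = 0.136. C1S had few reads in heifers and passed the filter on low counts through the cows. Its lack of overlap and its part in the counts of this list are therefore not separate evidence. SERPING1, the inhibitor of C1S, had 1.01, 2.75, 2.10, 4.99 and 6.12 CPM in the heifers and 5.14, 8.87, 11.3, 38.1 and 5.84 CPM in the cows, and the groups overlapped (2.01 ± 0.59 SE). CFI, the protease that inactivates C3b, was at 78.5 ± 27.4 CPM (SD, n = 5) in heifers and 50.4 ± 11.8 CPM (SD, n = 5) in cows. The summed level of the list overlapped, at 5263 to 7726 CPM (median 6681) in heifers and 6587 to 7547 CPM (median 7072) in cows. The chemokine CXCL10 was under the filter of edgeR, with 2, 4, 0, 2 and 4 reads in heifers A to E and 68, 10, 11, 62 and 4 reads in cows A to E.

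Of 6 tested genes of major histocompatibility complex (MHC) class II presentation, 5 had the higher mean in cows, 3 at an unadjusted p under 0.05. CIITA, the transactivator of the class II genes, had 3.28, 0.918, 1.53, 4.78 and 4.02 CPM in the heifers and 7.97, 3.77, 5.22, 11.7 and 5.04 CPM in the cows (1.22 ± 0.44 SE, adjusted p = 0.295). CD74, the invariant chain, had 115, 157, 95.2, 239 and 115 CPM in the heifers and 207, 158, 201, 711 and 214 CPM in the cows, with cow D far above the rest. Leaving out cow D gave 0 of 6 tested members higher at that p. Leaving out cow A gave 5 of 8 tested, since the filter then admitted further members. Of 8 tested markers of macrophages and granulocytes, which also carry class II, 5 had the higher mean in cows and 0 were at that p, and their summed level overlapped, at 32.5 to 62.9 CPM (median 54.2) in heifers and 45.3 to 61.9 CPM (median 58.5) in cows. T and NK cell markers were at 23.7 to 43.2 CPM (median 32.3) in heifers and 33.8 to 66.1 CPM (median 47.9) in cows, with 1 of 6 higher at that p. The part of these cells in the complement and class II values was not tested. Of 30 tested interferon response genes, 1 was higher and 1 lower at an unadjusted p under 0.05, with a median of 0.02.

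Cell contacts and epithelial structure were described by 45 tested junction genes, of which 29 had the lower mean in cows, 12 at an unadjusted p under 0.05 against 2 higher (median -0.09). At that p, 6.38% of all genes tested were higher and 5.44% lower. Leaving out each library gave 11 to 14 junction genes lower. TJP3, a scaffold of tight junctions, had 129, 101, 110.5, 88.5 and 105 CPM in the heifers and 69.6, 74.3, 71.2, 69.2 and 71.6 CPM in the cows. The cows were narrow and below every heifer, with a log2 difference of -0.58 ± 0.11 (SE), adjusted p = 0.0849. The desmosomal cadherin DSC3 ranged from 273 to 405 CPM in heifers and 63.2 to 234 CPM in cows (-1.14 ± 0.28 SE). In planar cell polarity, which aligns cilia across the epithelium, the 26 tested genes were split, 3 higher and 4 lower at that p. The large cadherin FAT4 had 41.1, 90.1, 54.9, 30.5 and 16.5 CPM in the heifers and 14.3, 14.9, 19.4, 14.9 and 16.7 CPM in the cows. The cows were narrow, and heifer E lay among them (-1.54 ± 0.35 SE, adjusted p = 0.139). ROR2, a receptor of Wnt ligands, ranged from 3.28 to 7.84 CPM in heifers and 9.21 to 17.4 CPM in cows (1.19 ± 0.27 SE).

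**Figure D3:**
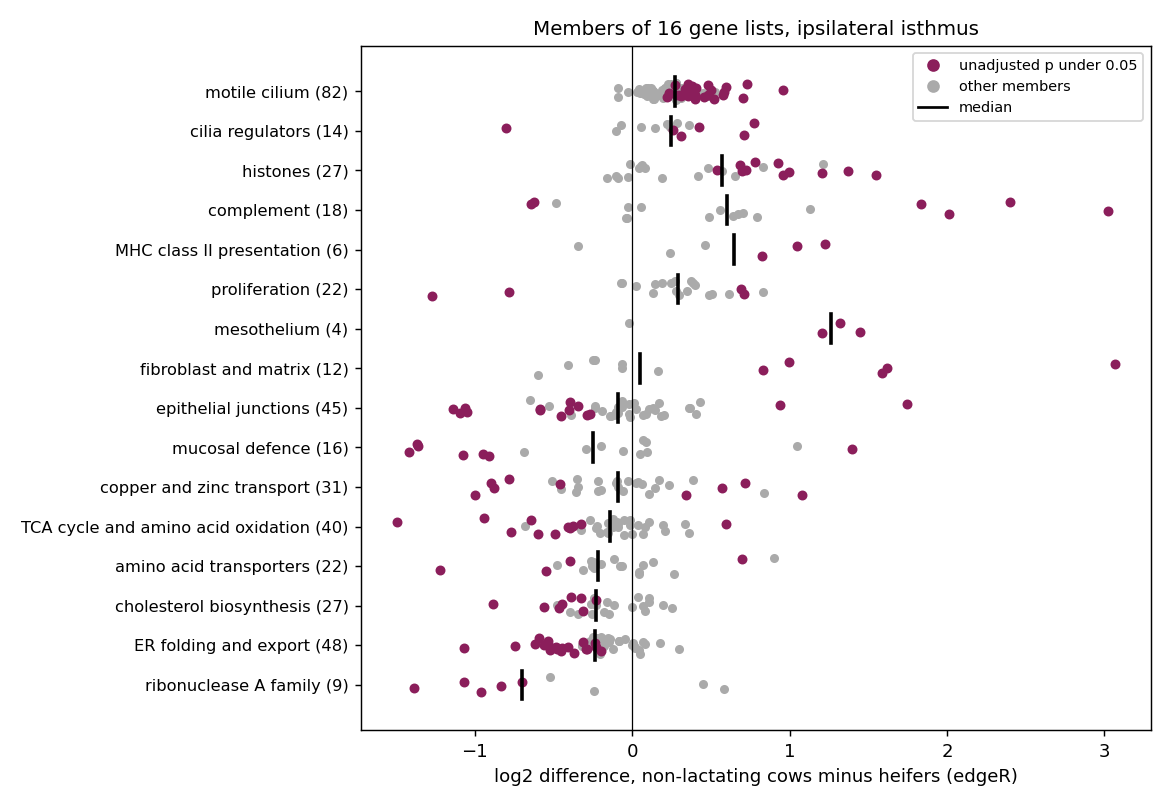
Log2 difference of cows minus heifers for the tested members of 16 gene lists (number tested in parentheses); each point is a gene, purple at an unadjusted p under 0.05, and the black bar is the list's median. The medians run from -0.70 for the ribonuclease A family to 1.26 for mesothelium, and motile cilium and ER genes lie on opposite sides of 0 with medians of 0.27 and -0.23.

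Metabolic genes leaned towards lower means in cows. Over all genes tested, 6.38% were higher and 5.44% lower at an unadjusted p under 0.05. Of 40 tested genes of the tricarboxylic acid (TCA) cycle and amino acid oxidation, 31 had the lower mean, 10 at an unadjusted p under 0.05 against 1 higher (median -0.14). OGDH, a subunit of the 2-oxoglutarate dehydrogenase complex, had 284, 245, 225, 173 and 219 CPM in the heifers and 158, 137, 139, 136 and 167 CPM in the cows, without overlap (-0.64 ± 0.13 SE, adjusted p = 0.123). GLUD1, glutamate dehydrogenase, ranged from 364 to 674 CPM in heifers and 195 to 368 CPM in cows (-0.94 ± 0.20 SE) and HSD17B10, a mitochondrial dehydrogenase of isoleucine breakdown, from 107 to 139.7 CPM in heifers and 56.8 to 95.6 CPM in cows (-0.60 ± 0.14 SE). Leaving out each library gave 7 to 13 lower at that p. For cholesterol synthesis and uptake, 19 of 27 tested genes had the lower mean, 8 at that p and 0 of the higher ones (median -0.23), and 5 without heifer E, without cow D or without cow E. PMVK, phosphomevalonate kinase, had 29.5, 35.4, 35.1, 17.9 and 43.2 CPM in the heifers and 19.7, 17.5, 15.5, 15.1 and 19.9 CPM in the cows, with heifer D within the cows (-0.88 ± 0.21 SE).

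ODC1, the first enzyme of polyamine synthesis, had 57.7, 47.5, 52.5, 38.01 and 49.2 CPM in the heifers and 30.8, 25.3, 35.97, 28.2 and 29.98 CPM in the cows, with all cows below all heifers (-0.70 ± 0.14 SE, adjusted p = 0.121), and ALDH18A1, which starts proline synthesis, had a log2 difference of -0.42 ± 0.11 (SE). The other members of that list were mostly near 0, with a median of -0.05 over 16 genes. Of 22 tested amino acid transporters, 15 had the lower mean, 3 at an unadjusted p under 0.05 against 1 higher (all genes tested: 5.44% lower, 6.38% higher). SLC7A5, a transporter of leucine and other large neutral amino acids, had 42.4, 120.4, 86.8, 40.3 and 69.8 CPM in the heifers and 32.2, 29.6, 36.7, 31.9 and 23.6 CPM in the cows. The cows were narrow and below the spread-out heifers (-1.22 ± 0.27 SE, adjusted p = 0.136). Of 25 tested genes of glycolysis and lactate handling, 1 was higher and 4 were lower at that p, BSG among them. GAPDH, a glycolytic enzyme that cells in general use, had 0 counts in all 10 libraries, so a 0 in this table need not mean that a gene was off.

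Copper and zinc transport gave a summed level of 1962, 2413, 2216, 2145 and 2182 CPM in the heifers and 1771, 1636, 1675, 1455 and 1844 CPM in the cows. Every cow was below every heifer. The members were split, however. Of 31 tested, 18 had the lower mean in cows and 13 the higher, with a median log2 difference of -0.09. At an unadjusted p under 0.05, 5 were lower and 4 higher. SLC31A1, the main copper importer, had 448, 668, 525, 570.01 and 534 CPM in the heifers and 280.4, 285, 323, 195 and 391 CPM in the cows (-0.90 ± 0.17 SE, adjusted p = 0.0849), and its relative SLC31A2 had 182, 264, 189.8, 98.05 and 150.2 CPM in the heifers and 119, 75.3, 89.2, 61.03 and 97.6 CPM in the cows, with heifer D within the cows (-1.0 ± 0.24 SE). The zinc transporter SLC30A4 ranged from 47.5 to 109 CPM in heifers and 26.4 to 62.3 CPM in cows (-0.88 ± 0.25 SE). SLC31A1 and SLC31A2 are neighbours of PRPF4 in the RefSeq gene order, with FKBP15 and CDC26 between them, for which the log2 differences were -0.40 and -0.14 (unadjusted p = 0.00158 and 0.504). The neighbours were looked up after these values were seen.

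Histones package DNA and are made mainly while it is copied. Of 27 tested histone genes, 22 had the higher mean in cows, 11 at an unadjusted p under 0.05 and 0 of the lower ones, with a median of 0.57. H2B had 6.05, 11.7, 9.35, 12.5 and 14.3 CPM in the heifers and 10.3, 68.3, 29.3, 29.3 and 21.8 CPM in the cows and HIST1H1D had 20.2, 24.2, 20.8, 27.8 and 30.99 CPM in the heifers and 28.7, 111, 54.1, 59.4 and 33.4 CPM in the cows. Cow B was the highest and cow A the lowest cow for both, and cow A lay within the heifers. Histone genes are near-identical copies, so the reads of single genes are uncertain, and without cow B 5 were higher at that p. Proliferation genes had a median of 0.29 over 22 tested, with 2 higher and 2 lower at that p. Their median was 0.15 without heifer B, and their summed level leaned the other way, at 632 to 760.01 CPM (median 703) in heifers and 344 to 663 CPM (median 557) in cows. DESeq2 called 1 member lower, UHRF1, which keeps DNA methylation through replication, and 0 higher. Of 11 tested S100 calcium-binding proteins, 3 were higher and 2 lower at that p. S100A4 had 19.4, 19.6, 16.6, 25.3 and 22.96 CPM in the heifers and 16.3, 4.53, 5.80, 5.28 and 7.16 CPM in the cows (-1.41 ± 0.31 SE), S100A2 ranged from 24.1 to 40.8 CPM in heifers and 9.81 to 20.6 CPM in cows (-0.88 ± 0.21 SE), and S100A14 was at 9.26 ± 4.77 CPM (SD, n = 5) in heifers and 24.3 ± 13.1 CPM (SD, n = 5) in cows.

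Signalling genes were split, where over all genes tested 6.38% were higher and 5.44% lower at an unadjusted p under 0.05. Of 15 tested ERBB receptors, ligands and adaptors, 3 were higher in cows and 1 lower at an unadjusted p under 0.05. Besides ERBB4 these were its ligand NRG3, at 1.14 ± 0.940 CPM (SD, n = 5) in heifers and 3.69 ± 1.998 CPM (SD, n = 5) in cows, the docking protein GAB1, which ranged from 69.7 to 101 CPM in heifers and 106 to 132 CPM in cows (0.43 ± 0.12 SE), and the partner receptor ERBB3, at 365 ± 30.5 CPM (SD, n = 5) in heifers and 312 ± 20.9 CPM (SD, n = 5) in cows. Among 19 tested genes of feedback and early response downstream of the kinase ERK, 2 were higher and 4 lower. The phosphatase DUSP5 had 14.1, 6.61, 9.73, 8.52 and 8.23 CPM in the heifers and 3.54, 2.83, 4.35, 5.47 and 4.24 CPM in the cows, and the transcription factor MYC had 4.79, 3.12, 6.11, 5.19 and 4.59 CPM in the heifers and 7.79, 9.81, 13.9, 8.93 and 10.1 CPM in the cows. Neither overlapped between groups, and the log2 differences were -1.20 ± 0.27 (SE) and 1.09 ± 0.24 (SE).

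Of 11 tested genes of insulin and insulin-like growth factor (IGF) signalling, 2 were higher and 1 lower at an unadjusted p under 0.05. The binding protein IGFBP7 ranged from 17.99 to 29.96 CPM in heifers and 32.1 to 48.9 CPM in cows (0.69 ± 0.16 SE), IGFBP5 was at 8.06 ± 4.78 CPM (SD, n = 5) in heifers and 15.8 ± 4.99 CPM (SD, n = 5) in cows, and IGFBP3 was at 102 ± 68.5 CPM (SD, n = 5) in heifers and 46.6 ± 31.96 CPM (SD, n = 5) in cows. Of 9 tested steroid hormone and related nuclear receptors, 2 were higher and 1 lower. NR3C1, the glucocorticoid receptor, ranged from 52.4 to 100.1 CPM in heifers and 88.2 to 145 CPM in cows (0.64 ± 0.17 SE). Of 15 tested glucocorticoid-responsive genes, 1 was higher and 1 lower, with FKBP5, a chaperone that curbs the receptor, at 953 ± 149 CPM (SD, n = 5) in heifers and 713 ± 70.8 CPM (SD, n = 5) in cows. At that p, 6.38% of all genes tested were higher and 5.44% lower. The counts for the glucocorticoid-responsive genes lie near these shares.

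Fluid transport and matrix turnover were mixed too. Of 33 tested genes of sodium, chloride and water transport, 4 were higher and 7 lower at an unadjusted p under 0.05 (median -0.11). Besides ATP1B2 and SCNN1A, P2RY2, a purinergic receptor that drives chloride secretion, had 68.8, 35.6, 61.4, 70.005 and 45.7 CPM in the heifers and 22.3, 35.3, 23.2, 30.2 and 35.02 CPM in the cows, and TRPM4, a sodium-conducting channel opened by calcium, ranged from 49.2 to 55.8 CPM in heifers and 29.9 to 48.8 CPM in cows. Their log2 differences were -0.95 ± 0.20 (SE) and -0.49 ± 0.13 (SE). Of 23 tested matrix proteases and inhibitors, 3 were higher and 5 lower. The metalloproteinase inhibitors went apart. TIMP1 had 102, 99.3, 111, 59.2 and 86.9 CPM in the heifers and 60.9, 31.9, 42.5, 51.4 and 15.9 CPM in the cows (-1.17 ± 0.28 SE), whereas TIMP3, which stays bound to the matrix, had 2.27, 35.6, 32.4, 44.2 and 28.7 CPM in the heifers and 68.02, 131, 106, 83.3 and 91.8 CPM in the cows (1.73 ± 0.43 SE). The metalloproteinase MMP11 ranged from 7.06 to 11.6 CPM in heifers and 3.34 to 5.31 CPM in cows (-1.15 ± 0.24 SE).

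Markers listed for cells other than epithelium were measured, and some differed with the groups. Which cells carried these transcripts in the scraped samples was not tested. For mesothelium, the lining of the outer surface, 3 of 4 tested markers were higher in cows at an unadjusted p under 0.05 and the summed level was 73.1 to 309.9 CPM (median 233) in heifers and 168 to 566 CPM (median 401) in cows. UPK3B had 3.53, 12.7, 16.98, 14.7 and 16.3 CPM in the heifers and 22.5, 38.5, 31.8, 45.2 and 23.9 CPM in the cows (1.32 ± 0.32 SE) and WT1 had 27.2, 98.7, 148, 156 and 141 CPM in the heifers and 130.01, 341, 314, 379 and 153 CPM in the cows (1.21 ± 0.40 SE), whereas MSLN, mesothelin, ranged from 2.02 to 135 CPM in heifers and 4.96 to 156 CPM in cows. For fibroblasts, 6 of 12 had the higher mean in cows and 6 the lower, with a median log2 difference of 0.05. At that p, 5 were higher and 0 lower, with 2 higher without cow B and 2 lower without cow E. The summed level overlapped, at 267 to 458 CPM (median 429) in heifers and 312 to 548 CPM (median 409) in cows. FMOD, a collagen-binding proteoglycan, ranged from 1.77 to 7.08 CPM in heifers and 7.26 to 16.4 CPM in cows, COL1A2 from 5.04 to 10.3 CPM in heifers and 10.1 to 17.9 CPM in cows and COL1A1 from 0 to 0.551 and from 0 to 6.02 CPM. The summed levels of the other lists overlapped between groups. B and plasma cells were at 8.32 to 14.5 CPM (median 10.1) in heifers and 7.26 to 56.5 CPM (median 12.04) in cows. Endothelium, with 1 of 4 higher at that p, was at 25.1 to 33.2 CPM (median 27.2) in heifers and 16.6 to 62.8 CPM (median 54.1) in cows, smooth muscle, with 1 higher and 1 lower of 4, at 152 to 192 CPM (median 178) in heifers and 147 to 199.7 CPM (median 179) in cows, and red blood cell genes at 0.383 to 1.26 and 0.566 to 2.32 CPM, with HBB at 0 in all 10. CD79A was at 0 in some libraries of both groups, and the part of these cells in the results was not tested.

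The differences between cows and heifers were set beside the difference between the 2 regions of the oviduct. For this, ampulla and isthmus were compared in 4 ampulla and 4 isthmus libraries of the lactating group from the ipsilateral side, none of which entered the comparison of cows with heifers. One of these ampulla columns bears the number of non-lactating cow C, and 1 ampulla column named for non-lactating cows bears that of a lactating cow, so these 2 columns may be exchanged. The isthmus columns have no such mismatch. The other 3 lactating ampulla libraries share animals with isthmus libraries. This description was added after the values of the lists had been seen. Of 13385 genes tested in both, 886 were higher in the ampulla and 1214 in the isthmus (edgeR, adjusted p under 0.05). Of the 886 ampulla genes, 832 had the higher mean in the isthmus of non-lactating cows than in that of heifers, 327 at an unadjusted p under 0.05 (36.9%) against 1 lower, with a median log2 difference of 0.34. Of the 1214 isthmus genes, 1063 had the lower mean in cows, 360 at that p (29.7%) against 8 higher, with a median of -0.28. The other 11285 genes had a median of 0.02, with 532 higher (4.71%) and 363 lower (3.22%). Across the 13385 genes the 2 differences had a Pearson r of 0.530 and a Spearman rho of 0.526, which describes genes measured in the same libraries and not independent replicates. With each of the 10 libraries left out in turn, and with heifer A and cow A out together, 801 to 833 ampulla genes had the higher mean in cows, 208 to 394 at that p and 208 without cow C, and 1 to 5 were lower at that p. Of the isthmus genes, 289 to 481 were lower and 3 to 11 higher at that p. Without the ampulla library of mismatched number, 619 of 661 ampulla genes had the higher mean in cows (median 0.34) and 878 of 1020 isthmus genes the lower (median -0.29). Over the 3 lactating animals with both regions, with the animal as a block, these were 817 of 870 (median 0.39) and 1015 of 1196 (median -0.28).

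A score was then given to each library, the mean log2 CPM of the ampulla genes minus that of the isthmus genes. It was -1.52, -1.25, -0.83, -0.84 and -0.92 in heifers A to E and -0.97, 0.09, -0.06, 0.09 and -0.57 in cows A to E. Cow A lay within the heifers and the other 4 cows above them, toward the ampulla, and heifer A was the farthest from it. This order of cow A and the other cows against the heifers was the same in both alternatives. In the ipsilateral ampulla the score was 1.65 to 1.96 in heifers and 1.55 to 1.98 in non-lactating cows, the column of mismatched number included at 1.90. Over all 56 libraries, the highest isthmus library was at 0.45 and the lowest ampulla library at 1.55. The ipsilateral isthmus of lactating cows, whose libraries chose the genes, was at -1.10 to -0.13.

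**Figure D4:**
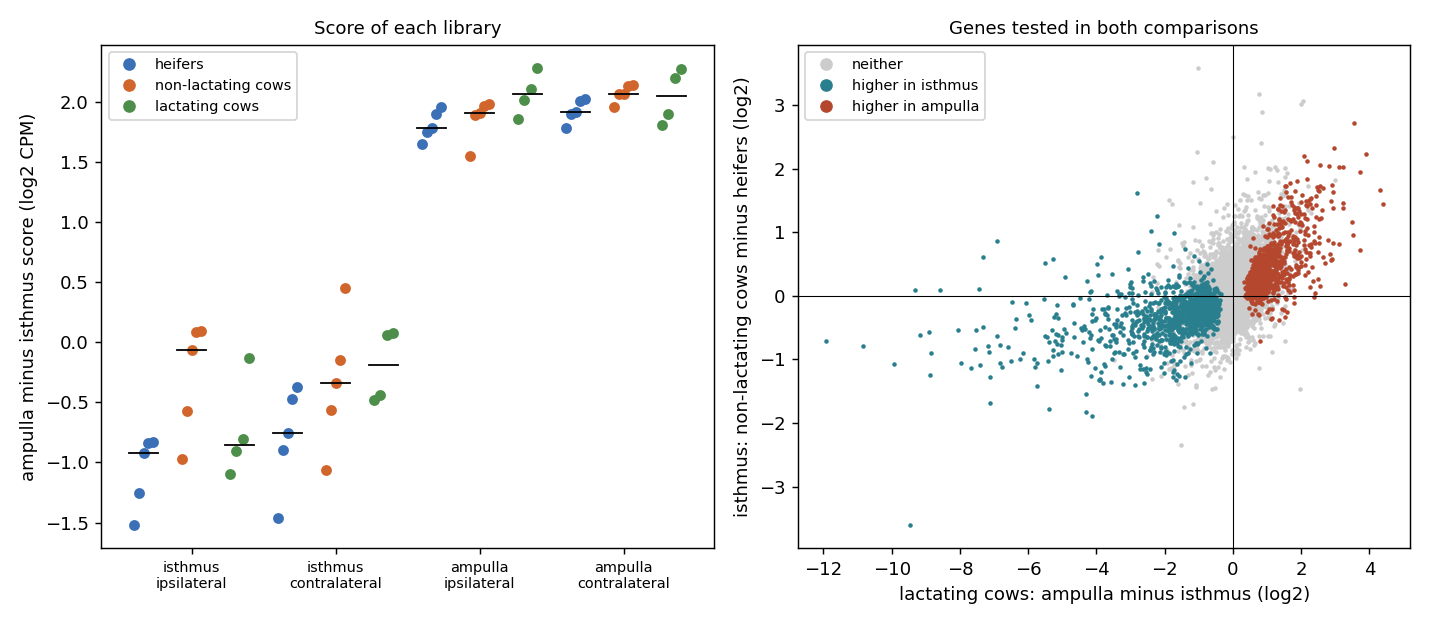
Left, score of each of the 56 libraries, the mean log2 CPM of genes higher in the ampulla minus that of genes higher in the isthmus of lactating cows, with black bars for medians; among isthmus libraries of the ipsilateral side, heifers are at -1.52 to -0.83 and non-lactating cows at -0.97 to 0.09. Right, log2 difference of ampulla minus isthmus in lactating cows (x axis) against that of non-lactating cows minus heifers in the ipsilateral isthmus (y axis) for 13385 genes, colored by the first comparison (Spearman rho 0.526).

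Several of the gene groups above lay along this axis. The log2 difference of ampulla minus isthmus was -4.32 for GAT, -5.74 for LRP2, -3.86 for GM2A and -2.71 for PRPF4, all of them isthmus genes with lower values in cows. The median over the members was 0.58 for the motile cilium, 0.82 for histones and 1.65 for mesothelium, whose median differences of cows minus heifers were above 0, and -0.35 for ER folding and export, -0.83 for cholesterol synthesis and -1.44 for the ribonucleases, whose medians were below 0. Other groups were less aligned with it or ran against it. Fibroblast markers had a median of -1.16 between the regions and 0.83 in cows minus heifers over the 9 tested in both. Over all 12 tested fibroblast markers, however, the median of cows minus heifers was 0.05. FMOD and COL1A2 of that list were higher in the ampulla by 1.52 and 0.65 (adjusted p = 0.0611 and 0.126). Secretory cell markers had -0.57 and 0.22. The complement list had a median of 0.04 and 1 ampulla and 1 isthmus gene among 18, and C1S and TNFSF9 differed between the regions by 0.81 and -0.28 with an adjusted p of 0.71 and 0.75. NEBL was higher in the ampulla (0.78) and lower in cows. With the score as a term in the fit, 0 genes passed the adjusted threshold and 794 were at an unadjusted p under 0.05 (408 higher, 386 lower). GAT was then at -1.65 ± 0.22 (SE, adjusted p = 0.0609) and ERBB4 at 0.96 ± 0.21 (SE, adjusted p = 0.613). Of the complement genes, C3 was at 1.03 ± 0.56 (SE), C1S at 1.74 ± 0.69 and SERPING1 at 0.16 ± 0.64, each nearer to 0 than without the term. The score itself differed between the groups, so the term takes up part of the group difference. Where along the isthmus each sample was taken is not given in the sources used here, and its part in the results was not tested.

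The same groups were compared in the contralateral isthmus, 5 libraries each from the same animals, to ask whether the difference depended on the side of the CL. There 0 of 13512 genes passed the adjusted threshold and 1240 (9.18%) were at an unadjusted p under 0.05, with the higher mean in cows for 605 (4.48%) and the lower for 635 (4.70%). The difference of the group effects between sides passed for 0 of 14476 genes, with 444 (3.07%) at an unadjusted p under 0.05, 238 above 0 (1.64%) and 206 below (1.42%), and DESeq2 gave 0 as well. With the animal as a block 0 passed, and 372 above and 361 below 0 were at that p. For ERBB4 the log2 difference of cows minus heifers was 0.91 on the ipsilateral side and 0.07 ± 0.15 (SE) on the contralateral, and the difference between sides was 0.84 ± 0.20 (SE, unadjusted p = 0.000420, adjusted p = 0.999). Its level was 14.8 ± 1.36 CPM (SD, n = 5) on the ipsilateral side in heifers, the lowest of the 12 conditions, against 27.6 ± 4.14 CPM in non-lactating cows, 27.5 ± 1.60 CPM (n = 4) in lactating cows and 43.7 ± 8.09 CPM (n = 5) in the contralateral isthmus of heifers. For GAT the contralateral difference was -0.81 ± 0.37 (SE) and the difference between sides -1.03 ± 0.42 (SE, unadjusted p = 0.0251, adjusted p = 0.999). MUC15 had a difference between sides of -1.03 ± 0.31 (SE), UPK3B of 1.35 ± 0.58 and DNAJB9 of -0.51 ± 0.17, each with an adjusted p of 0.999. The ampulla genes had a median of 0.20 and the isthmus genes of -0.20 in the contralateral comparison.

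**Figure D5:**
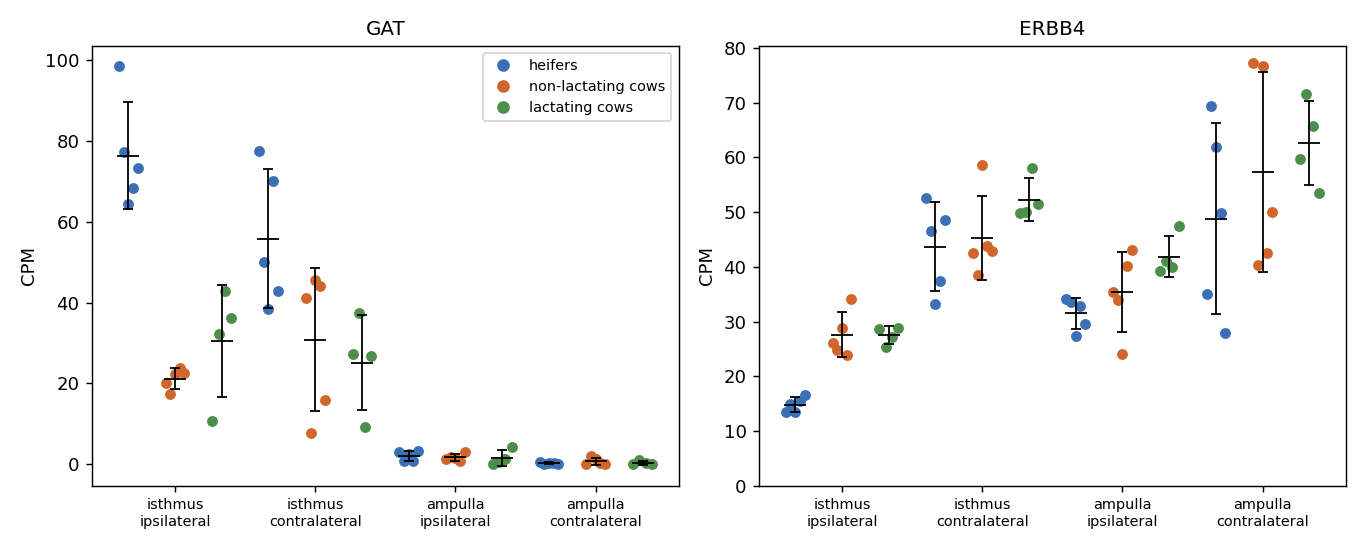
CPM of GAT (left) and ERBB4 (right) in each of the 56 libraries by region, side and group (linear axis from 0), on a scale common to all libraries; black bars are means with SD (n = 5, and 4 for lactating cows). GAT is near 0 in the ampulla and at 17.4 to 23.8 CPM on the ipsilateral side of the isthmus in non-lactating cows, and ERBB4 is lowest in the same place in heifers at 13.4 to 16.7 CPM.

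Non-lactating cows were compared with lactating cows in the ipsilateral isthmus, to place the genes named here against milking itself. Of 14077 genes, 0 passed the adjusted threshold and 881 (6.26%) were at an unadjusted p under 0.05, with the higher mean in non-lactating cows for 409 (2.91%) and the lower for 472 (3.35%). GAT differed by -0.52 ± 0.30 (SE, adjusted p = 0.852) and ERBB4 by 0.00 ± 0.14 (SE, adjusted p = 0.999). The difference of lactating cows minus heifers, which shares the heifers with the main comparison, was -1.32 ± 0.30 for GAT and 0.90 ± 0.13 for ERBB4. For immune genes, non-lactating minus lactating cows was -2.19 ± 0.92 for C1S, -2.25 ± 0.86 for CIITA and -1.34 ± 0.59 for BOLA-DMB, a class II peptide-loading subunit, with adjusted p of 0.798. FAT4 differed by -1.04 ± 0.23 and RNASE1 by -1.39 ± 0.42 (adjusted p = 0.778 each).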

How the data were processed

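RNA of scraped oviduct epithelium (RIN of at least 7.9) was sequenced single-end with a strand-specific kit. The authors mapped reads to the bovine assembly Btau_4.6.1 with TopHat2 2.0.13 and deposited whole-number read counts per gene, made with HTSeq 0.6.1 (stranded, intersection-strict), in which alignments to several places were not counted. Demultiplexing used bcl2fastq 1.8.4, per the submitters' processing notes. Counts on genes made up 10.6% to 13.7% of the counted alignments, and rows that name no gene were left out of library sizes.

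Columns were tied to groups by name, and the animals carry letters in the order of their numbers. Of 31903 genes, those passing filterByExpr (minimum count 10) were tested with edgeR 4.0.16 (TMM factors, quasi-likelihood F test, Benjamini-Hochberg) in R 4.3.3. A gene could pass this filter through the libraries of a single group. The filter was run again when libraries were left out, so the number of genes tested in a list could change. CPM used the same library sizes. The difference between sides was fitted as an interaction over 20 libraries, and ampulla against isthmus over 8 libraries of the lactating group, without a block for the animal. An ampulla column of each cow group carries a number of the other group, and that fit was repeated without the mismatched library. Alternatives with DESeq2 1.42.0, limma 3.58.1, other filters, thinned counts and libraries left out are given in the closing section. The scripts were tested on simulated data. The labels name separate animals as samples, and no 2 libraries of a group agreed within counting noise.

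The libraries, 36 gene lists (985 entries, 924 found) and alternatives were chosen with earlier results of these data known, and the lists hold genes that the study named from these libraries, so counts over them are not independent evidence. Named genes were those called, the 12 with the smallest p in each direction, up to 4 per list and markers of other cells with the highest mean. CXCL10, FAT4, BPIFA1, C1S, C3 and SERPING1 were named because the study's text names them. Epithelial markers and GAPDH were chosen after their values were seen. Some genes are not reported here. No sequences or coordinates were used, since no genome of this assembly was at hand.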

Additional observations from a re-analysis of the deposited data

Results flagged for a closer look

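For the genes named above, the highest or lowest of the 5 log2 CPM values of a group was compared with the nearest other value. Its gap exceeded the critical share of the range in 21 of 184 group tests, where chance gives about 1 in 20.

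Heifer A accounted for 12 of these. It was the lowest heifer for the mucosal and secretory genes OVGP1 (151 CPM) and MUC16 (245 CPM), and for C3 (7.31 CPM). So it was for UPK3B (3.53 CPM) and WT1 (27.2 CPM), both listed here for mesothelium, and for S100A14 (1.51 CPM). The same held for PDLIM2 (0.252 CPM), SVIL (28.2 CPM), LRP1 (29.5 CPM) and the matrix-bound inhibitor TIMP3 (2.27 CPM). It was the highest heifer for the ciliary gene LRRC48 (130.4 CPM) and for the desmosomal cadherin DSC3 (405 CPM).

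Among the other heifers, TP73 was low in heifer D (1.25 CPM), IGFBP3 was high in heifer D (223 CPM), and CFI was high in heifer E (127 CPM). Among the cows, cow A was the lowest for LRP1 (69.8 CPM) and IGFBP5 (7.44 CPM). Cow D was the lowest for CYB5B (40.6 CPM) and the highest for CD74 (711 CPM). Cow E was the lowest for S100A2 (9.81 CPM) and the highest for ERBB3 (348 CPM).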

How the results depend on the processing

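The count of 1 gene in the comparison of cows with heifers moved with some of the methods. It stayed at 1 with RLE size factors, with limma-voom and with robust dispersions. It was 228 with the Wald test of DESeq2, 219 with its beta prior, 27 without a filter on low counts, 2 with all 14 ipsilateral isthmus libraries in 1 fit and 9 with counts thinned to the smallest library. Leaving out single libraries gave 1 to 19 genes, with 7 without heifer D, 19 without cow A and 3 without cow C. Of the alternatives chosen after the data were seen, leaving out heifer A and cow A together gave 24, the first number in the column names as a term gave 3 (5 libraries), and the score of ampulla against isthmus as a term gave 0. For these counts the cause was not tested. In the comparison with lactating cows the count of 0 became 1 without non-lactating cow A or without non-lactating cow E, and 2 without lactating cow A, and was 0 with each other library left out. The count of 0 for the difference between sides did not move under any alternative run.

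With the score as a term, S100A14 changed sign to -0.31, WT1 to -0.23 and OVGP1 to -0.060 on the log2 scale, and GAT no longer passed the adjusted threshold. MSLN, at -0.02, was at -3.98 ± 1.04 (SE) with the score as a term. It ranged from -0.63 to 0.40 with single libraries left out, turning its sign without heifer D, heifer E, cow A, cow C or cow E, and was at 0.12 with heifer A and cow A out and 0.30 with the first number as a term. No other named gene changed direction. Scaling moved the median of all genes by less than 0.02.

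No paired analysis was possible because cows and heifers are different animals, and what the first part of their numbers marks is not given in the sources used here. For the difference between sides, the animal as a replicate block gave 0 genes (lowest adjusted p 0.313), and deviations of the same animal on both sides correlated at -0.01 to 0.55 (median 0.38, above 0.1 in 7 of 10 animals).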

Other observations

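Genes that lie next to each other sometimes had lower means in cows together. These neighbours were looked up in the RefSeq gene order of assembly ARS-UCD2.0 after the values were seen. The ribonuclease genes RNASE4, ANG and ANG2 had log2 differences of cows minus heifers of -0.96 ± 0.27, -1.39 ± 0.29 and -0.83 ± 0.31 (SE), whereas their neighbour RNASE6 had 0.58 ± 0.45. Around the copper transporters, RNF183, a ubiquitin ligase, had -0.62 ± 0.18 beside PRPF4 at -1.16 ± 0.20. In the S100 cluster, S100A2 and S100A4 had -0.88 ± 0.21 and -1.41 ± 0.31, while the adjacent S100A14 and S100A16 had 1.38 ± 0.46 and 1.16 ± 0.54. With edgeR none of these genes passed the adjusted threshold, while DESeq2 called PRPF4, ANG, RNASE4, S100A2 and S100A4 lower, and reads of closely related copies may be split between them.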
